A study of Mus musculus with 24 samples.

Results

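The regions described here are the 459 stretches of 1 kb, out of 2460688 such bins on mouse chromosomes 1 to 19, that carried the repressive histone mark H3K27me3 in both Kdm6a-mutant small cell lung cancer lines and in neither control line. A bin counted as marked where merged peaks covered at least 50% of it, and the 459 bins are 0.0187% of all bins. The bins were chosen by the H3K27me3 peak lists, so their H3K27me3 values are given below as a description and are not tested. KDM6A, H3K4me2 and H3K4me1 peaks, gene positions and promoter sequences did not enter the choice.

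Small cell lung cancer is a neuroendocrine lung tumour, and the lines came from tumours of the RPP mouse model, which is engineered in the tumour suppressor genes Rb1, Trp53 and Rbl2. The mutant lines, sgKdm6a RPP 236L and sgKdm6a RPP 236R, grew from tumours whose guide RNA targeted Kdm6a, and the control lines, sgControl RPP 159-1 and sgControl RPP 1014, from tumours with a control guide RNA. All 4 lines share the RPP background, were kept at early passage as floating cultures and were collected untreated 24 h after plating. Chromatin immunoprecipitation with sequencing (ChIP-seq) gave 1 peak list per line for H3K27me3, H3K4me2 and H3K4me1, and 1 per control line for KDM6A. Each genotype is thus represented by 2 lines, and the labels do not say whether 236L and 236R came from separate animals. The labels do not give the age or sex of the animals or the cell type in which the guides were expressed.

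H3K27me3 is laid down by Polycomb repressive complex 2 and is found over genes that are kept silent, among them many developmental regulators. KDM6A, also called UTX, demethylates H3K27 and also belongs to the KMT2C and KMT2D complexes, the H3K4 methyltransferases of enhancers. H3K4me1 marks enhancers and the flanks of promoters, and H3K4me2 marks active or poised promoters and enhancers.

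The following 6 promoters are those of genes on which the results below turn. Each runs from 250 bases before to 50 bases after a RefSeq start site on build GRCm38.p6, is written 5′ to 3′ on the strand of its gene, and has its CG dinucleotides, the target of DNA methylation, in capitals. Hoxb4 (chr11:96318017-96318316, plus strand), Neurog3 (chr10:62132840-62133139, plus strand), Mecom (chr3:30509710-30510009, minus strand) and Tril (chr6:53820776-53821075, minus strand) are shown because their bins held KDM6A and H3K4me2 in both control lines. Wnt3 (chr11:103773925-103774224, plus strand) and Kcnip1 (chr11:33843637-33843936, minus strand) are shown for contrast. At the 50% limit their bins counted as marked with H3K4me2 in both mutant lines and in neither control line. For Wnt3 this depends on the limit, as H3K4me2 peaks covered 523 bases in 236L and 668 in 236R, against 259 in 159-1 and 320 in 1014. For Kcnip1 they covered 0 bases in each control line.
Hoxb4: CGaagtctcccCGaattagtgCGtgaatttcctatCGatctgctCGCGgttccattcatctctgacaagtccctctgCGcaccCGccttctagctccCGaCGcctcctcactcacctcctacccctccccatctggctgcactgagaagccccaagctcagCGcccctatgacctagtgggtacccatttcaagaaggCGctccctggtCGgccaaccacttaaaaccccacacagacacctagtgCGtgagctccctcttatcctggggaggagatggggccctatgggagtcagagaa
Neurog3: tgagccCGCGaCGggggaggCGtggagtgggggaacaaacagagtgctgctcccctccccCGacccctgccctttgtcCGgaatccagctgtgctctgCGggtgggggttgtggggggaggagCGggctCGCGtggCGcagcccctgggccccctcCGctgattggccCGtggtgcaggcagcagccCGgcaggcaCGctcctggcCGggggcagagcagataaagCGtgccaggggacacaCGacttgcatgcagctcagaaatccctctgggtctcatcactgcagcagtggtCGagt
Mecom: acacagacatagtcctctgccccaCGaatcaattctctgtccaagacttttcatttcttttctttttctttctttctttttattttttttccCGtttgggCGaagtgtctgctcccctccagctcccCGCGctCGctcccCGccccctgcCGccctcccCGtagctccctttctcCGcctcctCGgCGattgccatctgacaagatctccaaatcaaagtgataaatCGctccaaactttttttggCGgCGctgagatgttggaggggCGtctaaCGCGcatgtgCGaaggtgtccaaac
Tril: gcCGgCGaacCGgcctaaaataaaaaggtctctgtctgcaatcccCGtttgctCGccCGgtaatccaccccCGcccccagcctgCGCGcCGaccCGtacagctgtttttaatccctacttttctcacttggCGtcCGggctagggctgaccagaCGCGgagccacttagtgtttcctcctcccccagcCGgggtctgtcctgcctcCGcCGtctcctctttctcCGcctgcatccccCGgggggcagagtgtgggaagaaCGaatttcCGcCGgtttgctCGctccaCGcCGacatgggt
Wnt3: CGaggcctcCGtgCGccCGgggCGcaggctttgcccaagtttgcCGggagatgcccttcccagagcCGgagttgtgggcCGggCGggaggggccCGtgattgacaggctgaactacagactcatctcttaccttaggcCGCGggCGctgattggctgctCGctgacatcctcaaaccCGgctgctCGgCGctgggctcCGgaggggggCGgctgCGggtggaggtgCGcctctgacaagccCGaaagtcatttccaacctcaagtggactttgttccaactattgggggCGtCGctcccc
Kcnip1: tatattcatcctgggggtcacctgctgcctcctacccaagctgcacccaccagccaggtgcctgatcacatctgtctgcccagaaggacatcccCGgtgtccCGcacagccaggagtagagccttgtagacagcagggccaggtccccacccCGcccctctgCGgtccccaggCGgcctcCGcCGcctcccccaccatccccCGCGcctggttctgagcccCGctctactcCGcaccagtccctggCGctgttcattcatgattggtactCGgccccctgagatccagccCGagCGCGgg
The counts of CG in these windows are 14 for Hoxb4, 19 for Neurog3, 19 for Mecom, 26 for Tril, 24 for Wnt3 and 16 for Kcnip1.

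The H3K27me3 lists differed in length and in content. On the autosomes they marked 12783 bins in 236L and 26959 in 236R, against 42348 in 159-1 and 105660 in 1014, and the read depth behind them is unknown. The 236L list stood apart: 39.6% of its bins also held H3K4me2 of the same line, against 11.8% in 236R, 5.40% in 159-1 and 4.49% in 1014. KDM6A of both control lines lay in 11.3% of the 236L bins, 0.916% of the 236R bins, 0.576% of the 159-1 bins and 0.462% of the 1014 bins. The cell identity checks were mixed for 236L. All 9 autosomal marker genes of small cell lung cancer that were looked up (among them Insm1 and Chga) had at least 1 kb of H3K4me2 peaks in every line, with summed lengths of 66.9 kb in 236L and 97.4 kb in 236R, against 101.9 kb in 159-1 and 112.0 kb in 1014. The summed H3K4me2 over 5 macrophage genes was 56.4 kb in 236L and 13.3 kb in 236R, against 16.6 kb in 159-1 and 14.4 kb in 1014, and Adgre1, a defining macrophage gene, was at 0 in every line but 236L. None of the 459 bins lay in the window of any of the 5 macrophage or 9 tumour marker genes, and 1 lay in that of a fibroblast gene (Col1a1); the part of these differences between lines in the results below was not tested.

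The 459 bins are a small part of the H3K27me3 that the mutant lines share. Of 4992 bins marked in both mutant lines, 3661 (73.3%) were also marked in both control lines, 872 (17.5%) in 1 of them and 459 (9.19%) in none. The 459 bins made up 3.59% of the 236L bins and 1.70% of the 236R bins. The reverse class, marked in both control lines and neither mutant line, held 19447 bins, which is 0.79% of all bins. The 3661 bins marked in all 4 lines serve below as the main comparison and are called common H3K27me3 bins.

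Most of the 459 bins were clear of control peaks. In 332 of them no base lay under an H3K27me3 peak of either control line, while 50 had some base under a 159-1 peak and 99 under a 1014 peak. The nearest control peak was a median 3331 bases away, 122 bins (26.6%) adjoined a bin marked in a control line, and 189 (41.2%) lay over 10 kb from any control peak. At the threshold itself, 110 bins had at least 500 but under 600 bases under the peaks of the less covered mutant line, and 156 bins just outside had at least 400 but under 500. For control cover, 36 bins just inside had at least 400 but under 500 bases in the more covered control line, and 36 just outside had at least 500 but under 600. Complete cover in both mutant lines was found in 120 bins (26.1%).

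The H3K27me3 peaks behind these bins were typical of their lists in height. The authors' fold enrichment had a median of 3.44 for the 338 peaks of 236L that overlap the 459 bins and of 3.26 for the 346 peaks of 236R, against 3.61 and 3.43 for the peaks over common bins. The median widths were 1725 bases in 236L and 1819 bases in 236R, against 1897 bases and 2740.5 bases for the peaks over common bins. The medians over the whole lists were 852.5 bases in 236L and 772 bases in 236R.

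About the same share of the 459 bins as of the common bins lay at gene ends. An end of a protein-coding gene was no more than 2.5 kb from 218 of the 459 bins (47.5%), against 48.9% of the common bins, 16.6% of the control-only bins and 8.19% of all bins. A further 135 bins (29.4%) lay inside gene bodies, against 20.0% of the common bins, and 106 (23.1%) outside them, against 31.2%. Read the other way, 0.108% of all bins near a gene end were among the 459. Without the 236L list in the rule 18.3% lay near a gene end, and without the 236R list 50.7%. Of all bins in the 236L list 49.9% lay near a gene end, against 25.1% for 236R. The part of each list in the share was not tested.

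The bins were unevenly spread over chromosomes. Chromosome 11 held 89 of them (19.4%), chromosome 4 held 70 (15.3%), chromosome 5 held 58 (12.6%) and chromosome 9 held 38 (8.28%), while chromosomes 8 and 19 held 1 each. Together chromosomes 4, 5, 9 and 11 held 55.6% of the 459 bins, against 41.0% of the common bins and 26.2% of all bins near a gene end. The same 4 chromosomes held 39.3% of the H3K27me3 bins of 236L and 44.3% of those of 236R, against 34.0% in 159-1 and 30.0% in 1014. Of the H3K4me2 bins of any line they held 27.3 to 28.3%. These 4 chromosomes were picked because they hold the most of the 459 bins. Their higher shares of the 459 bins and of mutant H3K27me3 therefore follow in part from that choice. Copy number of these chromosomes in the lines is not known here, and its part in the pattern was not tested. The densest megabase was chr4:154000001-155000000 with 17 bins, followed by 5 megabases with 12 bins each, among them those of the Hoxb cluster and of Ppp1r1b to Erbb2 on chromosome 11.

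**Figure D1:**
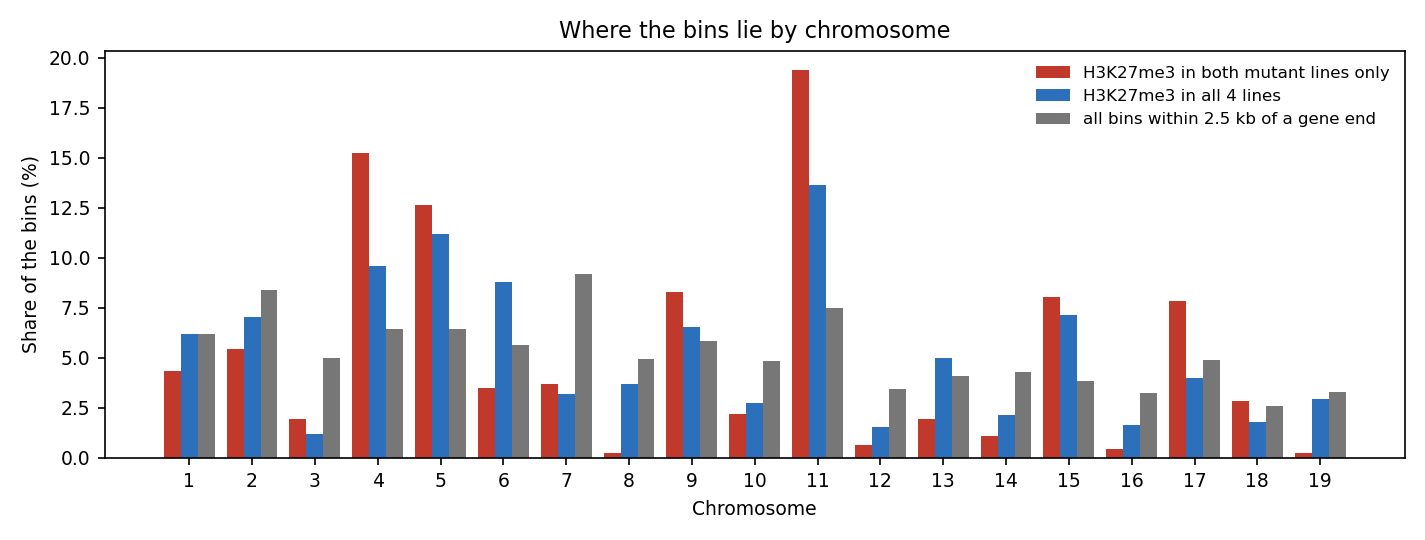
The share of bins (%, y axis) on each chromosome (x axis) for the 459 bins with H3K27me3 in both mutant lines only, the 3661 bins with it in all 4 lines and all bins within 2.5 kb of a gene end. Chromosomes 11, 4 and 5 hold 19.4%, 15.3% and 12.6% of the 459 bins, above the other classes.

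KDM6A, the demethylase whose gene the guide RNA targeted in the mutant lines, was profiled in the control lines alone, so its loss in the mutant lines is not checked here. It lay at 78 of the 459 bins (17.0%) in 159-1 and at 70 (15.3%) in 1014. Among the common bins the shares were 8.11% in 159-1 and 5.03% in 1014, and among all bins near a gene end 6.99% and 6.12%. Both control lines thus showed a higher share at the 459 bins than at the common bins, by 8.88 and 10.2 percentage points, but an exact sign-flip test over 2 lines gives p = 0.5, the smallest it can give. In these lines the common bins carry H3K27me3 by the rule and the 459 bins do not. This comparison is therefore not independent of the choice of bins. The gap was wider near gene ends, at 26.6% in 159-1 and 23.9% in 1014 for the 218 bins there against 9.73% and 5.25% for the common bins there. Away from gene ends it was narrow, at 8.30% and 7.47% for the 459-bin set against 6.57% and 4.81% for the common bins.

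In both control lines together KDM6A covered 50 of the 459 bins (10.9%, 95% Wilson interval 8.36 to 14.1%), in 1 line 48 and in neither 361. The interval covers counting error only, and neighbouring bins are not independent. The same call was made in 0.656% of all bins, 4.6% of the bins near a gene end and 2.68% of the common bins. It was also made in 11.3% of the whole 236L list, a share as high as that of the 459 bins. When the 236L list was left out of the rule the share was 1.17%, and when the 236R list was left out it was 22.2%, so the KDM6A share rests on the 236L list. Of all bins with KDM6A in both control lines, 50 of 16150 (0.31%) were among the 459, and near gene ends 37 of 9269 (0.399%), beside 0.0187% of all bins and 0.108% of all bins near a gene end.

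KDM6A and H3K4me2 mostly coincided, at these bins as elsewhere. Of the 50 bins with KDM6A in both control lines, 46 (92.0%) had H3K4me2 in both control lines as well, close to the 90.4% over all bins with KDM6A in both control lines, and 37 (74.0%) lay near a gene end. At the other extreme, 196 of the 459 bins (42.7%) had none of KDM6A, H3K4me2 and H3K4me1 in either control line, and 53 of those lay near a gene end.

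H3K4me2 was found at 138 of the 459 bins (30.1%) in 236L and at 171 (37.3%) in 236R, against 162 (35.3%) in 159-1 and 134 (29.2%) in 1014. The genotypes overlapped, the mutant lines averaging 33.7% and the control lines 32.2%, a difference of 1.42 percentage points (exact permutation test, p = 0.667, n = 2 each). H3K4me1 was found at 117 bins (25.5%) in 236L and at 213 (46.4%) in 236R, against 170 (37.0%) in 159-1 and 189 (41.2%) in 1014. Here too the genotypes overlapped, since 236L was the lowest line and 236R the highest, and the difference was -3.16 percentage points (exact permutation test, p = 1, n = 2 each). The deposited names of the 159-1 and 1014 lists of H3K4me2 each name the other line, so these values could belong to each other's line, which leaves counts over both unaffected. With 2 lines a side such a test cannot give less than 0.333, and p-values measure only the spread between these lines.

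**Figure D2:**
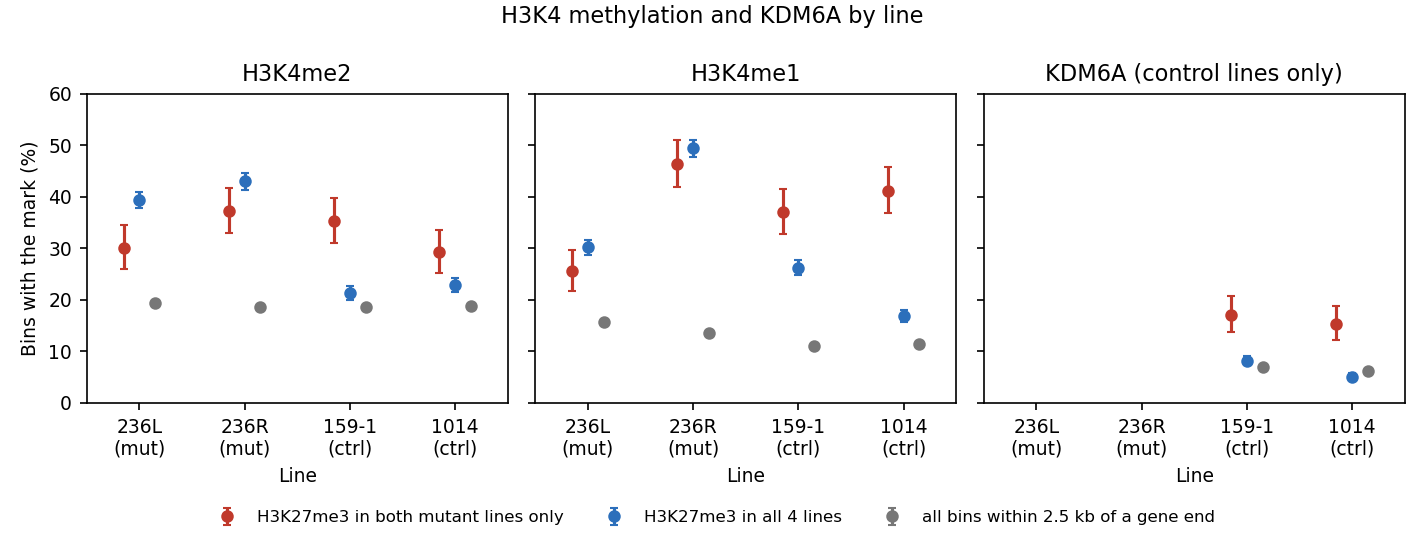
The share of bins (%, y axis) that carry H3K4me2, H3K4me1 or KDM6A in each line (x axis), for the 459 bins with H3K27me3 in both mutant lines only, the 3661 bins with it in all 4 lines and all bins near a gene end; bars are 95% Wilson intervals (counting error only). The 459 bins lie below the common bins for both H3K4 marks in 236L and 236R and above them in 159-1 and 1014, and above them for KDM6A.

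The common H3K27me3 bins showed another pattern in the same lists. Their H3K4me2 share was 39.3% in 236L and 43.0% in 236R, against 21.3% in 159-1 and 22.8% in 1014, with no overlap between genotypes (exact permutation test, p = 0.333, n = 2 each). The 459 bins therefore lay 9.21 and 5.71 percentage points below the common bins in the mutant lines 236L and 236R, and 14.0 and 6.36 points above them in the control lines 159-1 and 1014. For H3K4me1 they lay 4.69 points below in 236L and 2.95 below in 236R, against 10.8 above in 159-1 and 24.4 above in 1014. This turn did not hold for every place: near gene ends the H3K4me1 share was above that of the common bins in all 4 lines, by 1.23 points in 236L and 3.0 in 236R, against 17.9 in 159-1 and 33.0 in 1014. Away from gene ends the H3K4me2 gap in 1014 was -0.10 points. The mutant minus control change of this gap was -17.6 points for H3K4me2 and -21.4 for H3K4me1, and each reached the smallest p the exact permutation test allows, 0.333. By the rule the common bins carry H3K27me3 in the control lines and the 459 bins do not. The change is therefore not independent of the choice of bins, and the test cannot separate it from that choice. Against all bins, the 459 bins were higher in 4 of 4 lines for H3K4me2 and for H3K4me1 (exact sign-flip test, p = 0.125 each, the smallest it can give over 4 lines).

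By the rule these bins carry H3K27me3 in the mutant lines only, so both marks can be read together there alone. H3K4me2 was present at 30.1% of the 459 bins in 236L and 37.3% in 236R, below the 39.3% and 43.0% of the common bins. Among the 459 bins H3K4me2 was present in both control lines at 125 (27.2%), against 2.69% of all bins, 16.9% of bins near a gene end and 18.4% of the common bins. Without the 236L list in the rule this share was 4.18%, and without the 236R list 44.7%. Of these 125, 95 (76.0%) kept H3K4me2 in both mutant lines, 21 in 1 of them and 9 (7.2%) in neither. The background of such losses was 19.6% over all bins and 5.62% near gene ends, so the share of 7.2% was close to the level near gene ends. Over the 459 bins, H3K4me2 was called in 0 lines at 248 bins, in 1 line at 43, in 2 lines at 37, in 3 lines at 36 and in all 4 lines at 95. As these are populations of cells, H3K27me3 and H3K4me2 on the same nucleosomes cannot be told apart from the marks in different cells or on different alleles.

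H3K4me2 gains were few in number, but their share lay above that over all bins and over bins near a gene end. H3K4me2 was present in both mutant lines at 14 of the 288 bins (4.86%) that had it in neither control line. The background was 0.137% over all such bins and 0.939% near gene ends. H3K4me1 was present in both control lines at 133 bins (29.0%; 3.49% of all bins, 8.13% near gene ends and 15.2% of common bins). Of these 133, 58 kept it in both mutant lines, 51 in 1 and 24 (18.0%) in neither, beside a background of 29.5% over all bins and 17.7% near gene ends. It was gained at 26 of the 233 bins (11.2%) without it in the control lines, beside 0.31% over all bins and 2.39% near gene ends. H3K4me1 gains were likewise not counted over the common bins. Those bins had a mean H3K4me1 share of 39.8% in the mutant lines, against 21.5% in the control lines.

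The 9 bins that lost H3K4me2 lay at or nearest to Nkx1-1, Wscd2, Neurog3, Hkdc1, Nxph3, Ppp1r1b, Smug1 and, with 2 bins, Egflam. Egflam encodes pikachurin, an extracellular matrix protein of the retina. Its bin chr15:7382001-7383000 was the only one of the 46 bins with KDM6A and H3K4me2 in both control lines that lost H3K4me2 in both mutant lines: 0 bases in 236L and 0 in 236R, against all 1000 bases in 159-1 and in 1014. Of those 46 bins, 38 (82.6%) kept H3K4me2 in both mutant lines and 1 (2.17%, 95% Wilson interval 0.385 to 11.3%) lost it in both. The background of such losses was 9.53% over all bins with KDM6A and H3K4me2 in both control lines, which lies inside that interval. Of the 46 bins, 35 lay near a gene end, and this background was not matched for place. The share of losses therefore cannot be read as low.

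The 14 bins that gained H3K4me2 included 2 at Islr2 and 1 each at Kcnip1, Tulp1, Wnt9b, Matn4, Kcnk3 and Egr4. At Kcnk3, which encodes a background potassium channel, H3K4me2 peaks covered 953 bases of the bin in 236L and 1000 in 236R, against 0 in 159-1 and 0 in 1014. At Egr4, a zinc finger transcription factor gene, they covered 695 bases in 236L and 649 in 236R, against 168 in 159-1 and 0 in 1014. These bins thus gained H3K27me3 and H3K4me2 peaks side by side in the same lines.

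The 459 bins formed 356 unbroken runs, of which 287 were a single bin, 50 had 2 bins and 19 had 3 or more. The 8 bins of the longest run, chr9:58196001-58204000, spanned nearly the whole of Islr2, which encodes a neuronal membrane protein with leucine-rich repeats. H3K27me3 peaks covered all 8.00 kb of it in 236L and in 236R, against 0 kb in 159-1 and in 1014. H3K4me2 peaks covered 4.09 kb in 236L and 6.79 kb in 236R, against 4.69 kb in 159-1 and 0.221 kb in 1014, so the control lines differed widely and overlapped the mutant lines. KDM6A peaks covered 2.03 kb in 159-1 and none in 1014.

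Runs of 5 bins lay in Kcnip1 (a potassium channel subunit), Tulp1 (a photoreceptor protein) and Megf6 (a protein with EGF-like repeats). In the Kcnip1 run H3K4me2 covered 1.06 kb in 236L and 0.996 kb in 236R, against 0 kb in both control lines. In the Tulp1 run it covered 1.42 kb in 236L and 1.43 kb in 236R, also against 0 kb in both. Neither run had KDM6A beyond 0.339 kb. In the Megf6 run H3K4me2 covered 1.65 kb in 236L and 2.75 kb in 236R, against 4.16 kb in 159-1 and 2.70 kb in 1014, so 236R and 1014 nearly coincided and the genotypes overlapped.

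Runs of 4 bins lay at Hoxb4 with Hoxb3, Ppp1r1b, Meox1 and Elfn2. At Ppp1r1b, which encodes the phosphatase inhibitor DARPP-32, H3K4me2 covered 0.381 kb of the run in 236L and 0.411 kb in 236R, against 4.00 kb in 159-1 and 1.06 kb in 1014. H3K4me1 there covered 0.209 kb in 236L and 1.71 kb in 236R, against 2.48 kb in 159-1 and 4.00 kb in 1014. In this run both H3K4 marks were thus shorter in each mutant line than in each control line, and KDM6A covered 0 kb in 159-1 and 1.35 kb in 1014. Over all 6 bins in the Ppp1r1b window, H3K4me2 covered 0.959 kb in 236L and 1.434 kb in 236R, against 4.86 kb in 159-1 and 1.425 kb in 1014. The genotypes thus overlapped for H3K4me2 over the window, while H3K4me1 remained shorter in each mutant line. At Meox1, a homeobox gene of the somites, no line exceeded 0.803 kb of H3K4me2 and neither control line had KDM6A.

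**Figure D3:**
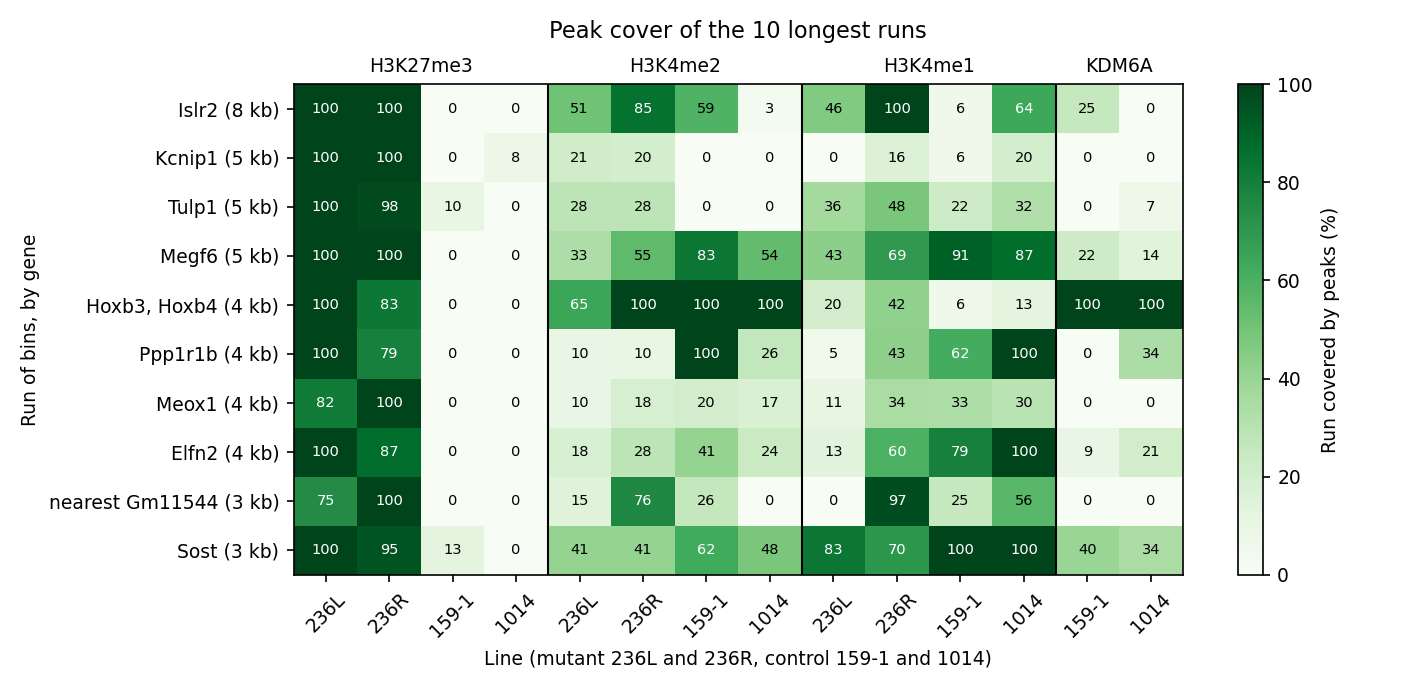
The share of each of the 10 longest runs (rows, with gene and length in kb) that peaks cover, in %, by mark and line (columns, mutant lines left of control lines within each mark). H3K27me3 covers most of each run in the mutant lines by choice of the bins. KDM6A covers all 4.00 kb of the Hoxb3 and Hoxb4 run in both control lines and a minor part of every other run.

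The Hoxb cluster held the densest overlap with KDM6A. HOX genes encode homeodomain transcription factors that set position along the body axis, and HOX clusters are a classic Polycomb target. Between Hoxb9 and Hoxb1 (chr11:96271330-96368254, 96.9 kb) lay 12 of the 459 bins, and 9 of them had both KDM6A and H3K4me2 in both control lines. H3K27me3 peaks covered 77.7 kb of the cluster in 236L and 14.8 kb in 236R, against 0.756 kb in 159-1 and 0 kb in 1014. H3K4me2 covered 28.9 kb in 236L and 81.8 kb in 236R, against 73.7 kb in 159-1 and 74.0 kb in 1014. KDM6A covered 51.2 kb in 159-1 and 41.3 kb in 1014.

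The mutant lines thus differed from each other here by more than 236R differed from the control lines in H3K4me2. H3K4me1 covered 9.16 kb in 236L and 37.8 kb in 236R, against 37.0 kb in 159-1 and 55.0 kb in 1014, which again set 236L apart. Of the 12 bins, 12 held H3K4me2 in 236R and 6 in 236L, against 12 in 159-1 and 11 in 1014.

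The Hoxb4 run, chr11:96318001-96322000, spans the whole gene, whose product is known from blood stem cells. KDM6A and H3K4me2 covered all 4.00 kb of it in both control lines. H3K4me2 covered 2.58 kb in 236L and 4.00 kb in 236R, and H3K27me3 covered 4.00 kb in 236L and 3.30 kb in 236R, against 0 kb in 159-1 and in 1014. Of the 39 HOX genes, 8 (20.5%) had at least 1 of the 459 bins in the gene body or within 10 kb of it. The share over all autosomal protein-coding genes was 1.66%. All 8 were Hoxb genes with overlapping windows, so they do not count as independent cases.

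The HOX genes of other clusters held H3K27me3 in every line. The window of Hoxa9, for example, had 21.3 kb in 236L and 23.3 kb in 236R, against 23.5 kb in 159-1 and 24.3 kb in 1014. Its H3K4me2 covered 11.4 kb in 236L and 8.70 kb in 236R, against 0.62 kb in 159-1 and 0.571 kb in 1014.

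**Figure D4:**
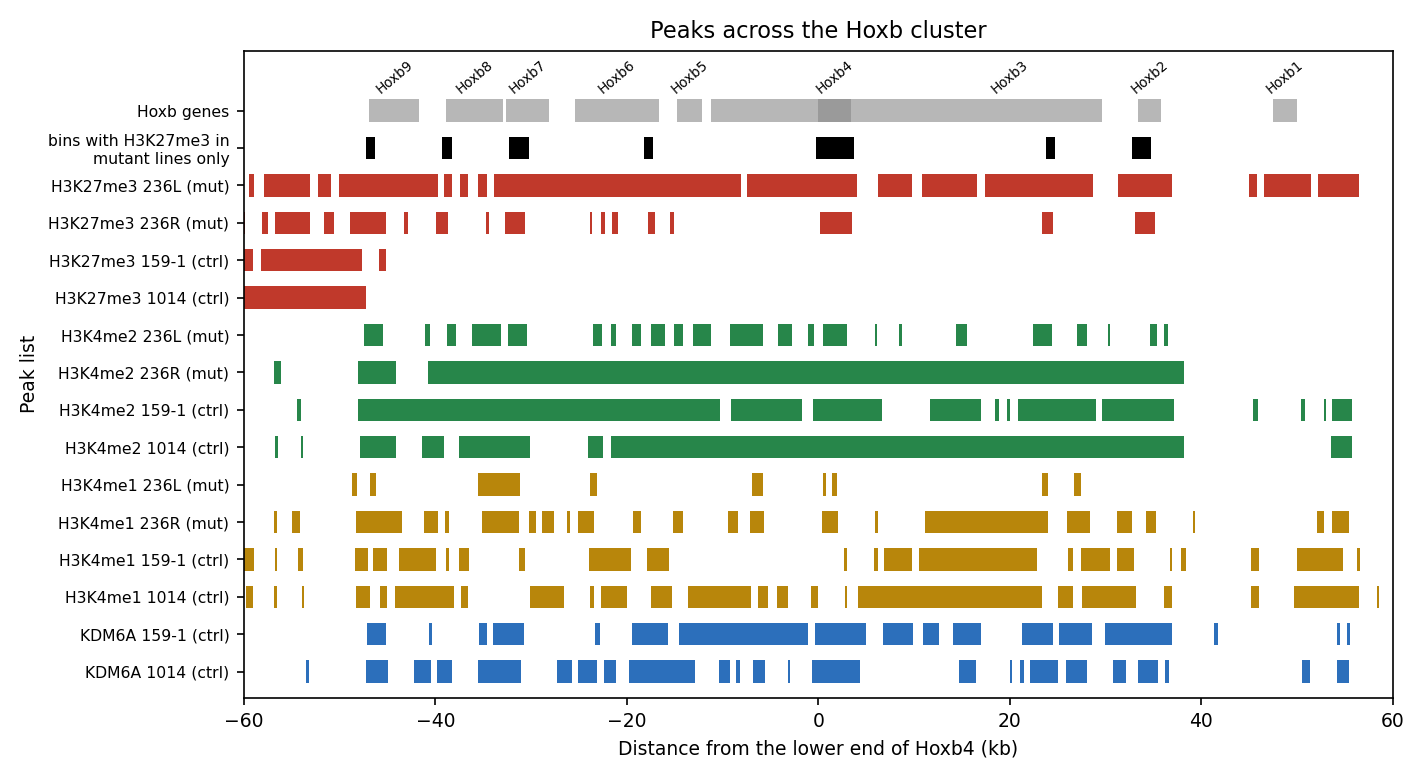
Peaks over the Hoxb cluster by mark and line (rows, mutant lines above control lines), against the distance from the lower end of Hoxb4 in kb (x axis); the top rows show gene bodies and the bins with H3K27me3 in both mutant and neither control line. H3K27me3 peaks cover 77.7 kb of the cluster in 236L in broad blocks and 14.8 kb in 236R in short ones, while KDM6A and H3K4me2 span much of the same ground in the control lines.

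Neurog3 and Sox2, transcription factor genes of endocrine and stem or neural progenitor cells, were the genes of the neuroendocrine and proneural list with such a bin, 2 of 36 (5.56%). The share over all autosomal protein-coding genes was 1.66%, and 2 genes are too few to be read as high. All 4 bins of Neurog3 lay at a gene end, in a window with no H3K27me3 peak in either control line. The start-site bin, chr10:62133001-62134000, was fully under KDM6A and H3K4me2 in both control lines, and H3K4me2 covered 967 bases in 236L and 1000 in 236R. The bin just past the gene, chr10:62135001-62136000, had no base of H3K4me2 in 236L or 236R, against 1000 bases in 159-1 and in 1014. Over the 4 bins H3K4me2 covered 0.967 kb in 236L and 1.38 kb in 236R, against 2.74 kb in 159-1 and 4.00 kb in 1014. So the groups did not overlap over the 4 bins, while the start-site bin kept its mark.

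Sox2 had 4 bins in its window and 3 more between 10539 and 12539 bases from the gene. In the gene's own bin chr3:34650001-34651000, KDM6A and H3K4me2 covered all 1000 bases in each control line, and H3K4me2 covered 1000 in 236L and 1000 in 236R. H3K4me1 covered 1000 bases of this bin in 236L and in 236R, against 0 in 159-1 and in 1014. The bin chr3:34664001-34665000, which lies outside the gene, showed the same arrangement, with KDM6A over 1000 bases in each control line and H3K4me1 over 1000 bases in each mutant line, against 314 in 159-1 and 29 in 1014. Both bins gained H3K4me1 and kept H3K4me2. The other bin in the gene, chr3:34651001-34652000, had H3K4me2 over 514 bases in 236L and 473 in 236R, against 1000 in 159-1 and in 1014, so it was shorter there in each mutant line.

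Mecom, Tril and Nkpd1 each had 2 bins near a gene end with KDM6A and H3K4me2 in both control lines. Mecom encodes a zinc finger transcription factor. In its 2 bins KDM6A covered 1.59 kb in 159-1 and 1.63 kb in 1014, and H3K4me2 covered 1.93 kb in 236L and 1.86 kb in 236R, against 2.00 kb in each control line. At Tril, which encodes a partner of Toll-like receptors, the 2 bins had KDM6A over 1.90 kb in 159-1 and 1.95 kb in 1014, and H3K4me2 over 2.00 kb in every line. H3K4me2 therefore spanned nearly the same length in all lines at both genes. Neither gene was clear of control H3K27me3, which reached 0.384 kb of the Mecom bins in 159-1 and 0.721 kb of the Tril bins in 1014.

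Over all 20665 autosomal protein-coding genes, 343 (1.66%) had at least 1 of the 459 bins within the gene body or 10 kb of it, 170 (0.823%) at a gene end, and 57 had 3 or more in the window. The most were found at Plch2 (10, a phospholipase C gene), Msi1 (9, an RNA-binding protein of neural progenitors), Islr2 (8) and Hoxb3 (8). The 10 bins at Plch2 lay in the window away from gene ends and had no KDM6A in either control line. H3K4me2 covered 0.934 kb of them in 236L and 1.71 kb in 236R, against 0 kb in 159-1 and 0.547 kb in 1014. At Msi1, KDM6A covered 0.545 kb of the 9 bins in 159-1 and 0 kb in 1014, and H3K4me2 covered 0.261 kb in 236L and 1.36 kb in 236R, against 1.09 kb in 159-1 and 0.745 kb in 1014. The bins at Plch2 and Msi1 were thus nearly free of KDM6A, unlike the 8 at Hoxb3, where it covered 7.80 kb in 159-1 and 7.38 kb in 1014.

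Wnt and Hedgehog pathway genes had such a bin in 8 of 54 cases (14.8%), against 1.66% of all autosomal protein-coding genes. They were the ligand genes Wnt1, Wnt3, Wnt3a, Wnt4 and Wnt9b, the receptor genes Ptch1 and Lgr6 and the Hedgehog co-receptor gene Gas1. Wnt3 and Wnt9b share 3 bins at their adjacent ends. There H3K4me2 covered 1.74 kb in 236L and 2.34 kb in 236R, against 1.39 kb in 159-1 and 1.34 kb in 1014, and KDM6A covered 0 kb in 159-1 and 0.49 kb in 1014. H3K4me2 was longer in each mutant line than in each control line. At the 3 bins of Wnt4, H3K4me1 covered 0 kb in 236L and 1.00 kb in 236R, against 2.35 kb in 159-1 and 2.44 kb in 1014, and H3K4me2 did not exceed 0.549 kb in any line. H3K4me1 was shorter there in each mutant line.

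In the remaining lists the numbers were small, and they stand beside 1.66% of all autosomal protein-coding genes. Counts this small, 0 included, cannot be read as high or low. Such a bin was found for 4 of 35 Notch, YAP and mesenchymal genes (Twist2, Tead3, Heyl and Hes5), 3 of 47 axon guidance genes (Epha8, Plxna4 and Robo3), 2 of 79 developmental transcription factor genes outside HOX (Gata5 and Gata6), 2 of 22 lung epithelial genes (Foxj1 and Aqp5), 1 of 15 tuft cell genes (Gng13) and 1 of 63 neurotransmitter receptor and ion channel genes (Grik4). None was found among 36 antigen presentation and interferon genes, 47 cadherin and adhesion genes, 29 immune genes or 18 housekeeping genes. The median number of bins per gene was 0 in each of these lists, as over all genes. Windows of long genes and of neighbours can share bins, so these counts are not independent.

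Pyy and Ppy, genes of peptide hormones of the gut and pancreas, lie side by side and shared bins. Over the 3 bins at Pyy, H3K4me1 covered 0 kb in 236L and 2.60 kb in 236R, against all 3 kb in 159-1 and 1.77 kb in 1014. H3K4me2 covered 0.376 kb in 236L and 2.18 kb in 236R, against 1.25 kb in 159-1 and 1.14 kb in 1014. The mutant lines fell on either side of the control lines for H3K4me2, and no KDM6A peak reached these bins. At Gata5, a zinc finger transcription factor of heart and gut, the 3 bins had H3K4me1 over 0 kb in 236L and 0.195 kb in 236R, against 2.00 kb in 159-1 and 1.16 kb in 1014, and no KDM6A.

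Around Ppp1r1b, Stard3 and Erbb2 on chromosome 11, 10 bins between chr11:98346001-98347000 and chr11:98427001-98428000 had no base of control H3K27me3. Erbb2 encodes a receptor tyrosine kinase. Its start-site bin, chr11:98412001-98413000, held H3K27me3 over 1000 bases in 236L and in 236R, and H3K4me2 over 1000 bases in all 4 lines. KDM6A covered 0 bases of it in 159-1 and 516 in 1014, so this bin was called for KDM6A in 1 control line.

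Promoter sequences were matched for 16457 of the 20665 genes (79.6%), with 20085 start sites. Of these, 46 start sites of 43 genes lay in the 459 bins. They were rich in CG, with a median of 19 CG in 300 bases (quartiles 11 and 22), against 19 at the 362 start sites in common bins and 14 at all start sites. At least 10 CG were found in 36 of the 46 (78.3%), against 79.0% at the common bins and 57.9% of all start sites. The 6 promoters printed above all reach 14 or more. H3K4me2 was present in both control lines at 32 of the 46 start sites and in all 4 lines at 28, and KDM6A with H3K4me2 in both control lines at 12, among them Hoxb4, Neurog3, Mecom, Tril, Elfn2, Foxa3 and Amotl1. These marks were not counted over all start sites or over those in common bins. The counts therefore cannot be read as high or low.

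The E-box CAGCTG, which reads the same on both strands and is a core that basic helix-loop-helix factors can bind, occurred in 14 of the 46 promoters (30.4%), against 14.9% of those in common bins and 15.6% of all promoters. Neurog3 and Tril are the printed promoters that hold it. With 46 promoters this is a description, and it says nothing about binding.

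**Figure D5:**
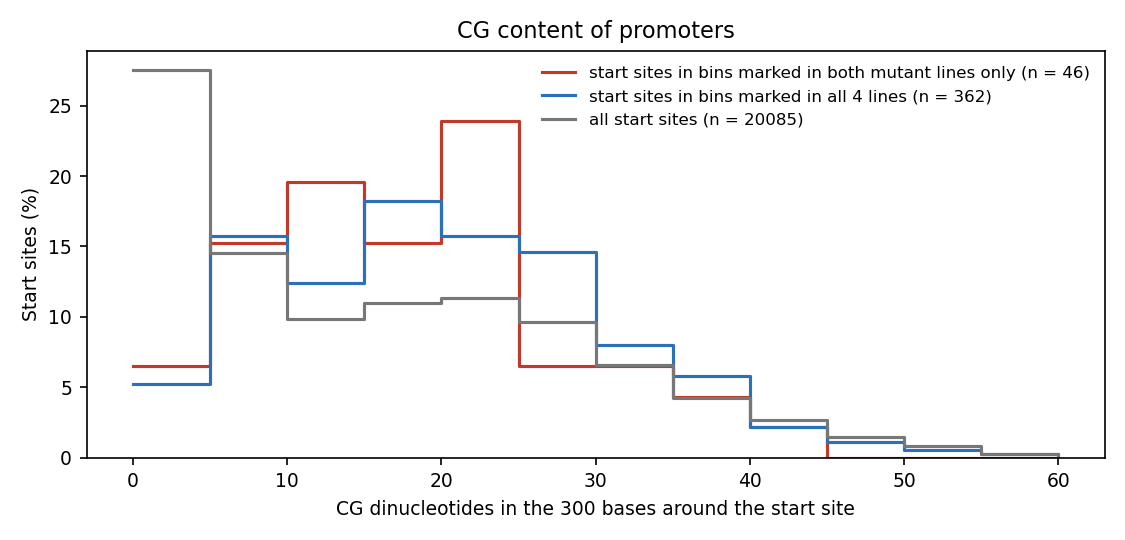
The share of start sites (%, y axis) by the number of CG dinucleotides in the 300 bases around them (x axis, in steps of 5), for the 46 start sites in the 459 bins, the 362 in bins with H3K27me3 in all 4 lines and all 20085. The medians are 19, 19 and 14, and start sites with few CG are scarcer in both H3K27me3 classes than among all.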

How the data were processed

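The series holds 24 ChIP-seq samples, and the 14 with a peak list were used; the 10 input libraries are not used here. Per the submitters' processing notes, the aligner was Bowtie2 2.4.2, the peak caller MACS3 3.0.0a7 and the build mm10. The sources used here name no peak threshold, control track, duplicate filter or read depth. Per the labels' protocols, cells for KDM6A were first crosslinked with disuccinimidyl glutarate at 2 mM. Each list holds broad peaks of 1 library, for which the authors deposited a fold enrichment (a linear ratio) and, on the −log10 scale, a p-value and a q-value. These are the authors' values and served only to describe or filter peaks within a list. The deposited names of the H3K4me2 lists of 159-1 and 1014 each name the other line, and the sample labels were followed. No count of control lines together depends on this.

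Peaks of a library were merged and laid on 1 kb bins of chromosomes 1 to 19, and a bin was marked where they covered at least 50% of it. Genes and start sites came from RefSeq tables of GRCm38.p6. The gene table has no strand, so 2.5 kb on either side of both gene ends was used, and a gene window adds 10 kb to both sides of the gene body. Genes were named where they had the most of the 459 bins in the window or at a gene end, the most with KDM6A and H3K4me2 in both control lines, or one of the longest runs, and where a listed gene had 3 or more. Single bins at Erbb2, Kcnk3, Egr4 and Egflam and the window of Hoxa9 were named after their values were seen. The bins and the gene lists were chosen with earlier results of these data known.

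Shares per line were compared between mutant and control lines by an exact two-sided permutation test, and between classes of bins by an exact two-sided sign-flip test over lines. Alternatives changed the q-value limit, the covered share, the bin start, the list length, the gene end distance and the libraries. The steps were tested on simulated data, with Python 3.11.15, numpy 2.4.6, pandas 2.3.3, scipy 1.17.1 and matplotlib 3.10.9.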

Additional observations from a re-analysis of the deposited data

Results flagged for a closer look

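On chromosome X, which the choice of bins leaves out, 29 bins had H3K27me3 in both mutant lines and neither control line, against 9 bins with the reverse pattern. The lists marked 151 bins there in 236L and 957 in 236R, against 51 in 159-1 and 240 in 1014. The direction of the imbalance was the opposite of that on the autosomes, where 459 bins stood against 19447, and the sex of the animals behind the lines was not used here. The cause was not tested.

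The gap in H3K4me2 share between the 459 bins and the common H3K27me3 bins ran in opposite directions in the genotypes: it was negative in 236L and 236R and positive in 159-1 and 1014. The mutant minus control difference of this gap was -17.6 percentage points, with an exact permutation p of 0.333, the smallest that 2 lines against 2 can give. For H3K4me1 it was -21.4 points, with the same p. The 459 bins lack H3K27me3 in the control lines by the rule, while the common bins carry it there. These differences are therefore not independent of the choice of bins, and the part of that choice was not tested. Near gene ends, however, the H3K4me1 gap was positive in all 4 lines, and away from gene ends the H3K4me2 gap in 1014 was -0.10 points. The common bins had more H3K4me2 in the mutant lines (a mean of 41.1%, against 22.1% in the control lines), while the 459 bins had nearly the same in both (33.7%, against 32.2%).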

How the results depend on the processing

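The number of bins and the shares depended on the peak lists and thresholds, and the differences between genotypes in the H3K4 marks did not hold their sign. With peaks up to q = 0.001 the rule gave 32 bins, 62.5% near a gene end and 12.5% with H3K4me1 in both control lines, with genotype differences of -1.56 points for H3K4me2 and 12.5 points for H3K4me1. With 25% of a bin covered it gave 733 bins, 16.9% with KDM6A, 33.6% with H3K4me2 and 38.7% with H3K4me1 in both control lines, and an H3K4me2 difference of -1.50. With 75% covered it gave 278 bins, 57.9% near a gene end, 7.91% with KDM6A and 23.0% with H3K4me2, and an H3K4me2 difference of -0.180. With bins shifted by 500 bases the H3K4me2 difference was -1.81. With the H3K27me3 lists cut to equal covered length it gave 859 bins, 42.3% near a gene end, 5.47% with KDM6A, 21.1% with H3K4me2 and 21.3% with H3K4me1, and an H3K4me1 difference of 1.05. Within 1 kb of a gene end lay 32.0%, within 10 kb 73.2%, and within 2.5 kb of a start site 31.4%.

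Leaving out 1 list at a time gave 536 to 7325 bins, 18.3 to 50.7% near a gene end, 1.17 to 22.2% with KDM6A, 4.18 to 44.7% with H3K4me2 and 6.05 to 35.1% with H3K4me1 in both control lines, an H3K4me2 difference of -3.90 to 5.01 and an H3K4me1 difference of -13.6 to 7.30. There were 7325 bins without the 236L list and 5221 without that of 236R, against 1254 without that of 1014 and 536 without that of 159-1. Counting each run once, leaving out chromosome 11 and asking for no base of a control peak moved no share beyond its counting interval and turned no sign. The start sites, the runs, chromosome 11 and the left-out H3K4 lists were chosen after seeing the data. The cause of these shifts was not tested, apart from the fewer lists in the rule. No paired analysis was possible because no label pairs a mutant with a control line. With 2 lines per genotype and no read depth, a site absent from a list may be unmarked or below detection.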

Other observations

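H3K4me1 was gained in both mutant lines at 26 of the 459 bins. These included bins at Hoxb9, Hoxb7, Mecom, Sox2, Islr2, Tmem151b, Igfbp2, Igfbp6, Col1a1 and Scrt1, a gene of a neural zinc finger repressor. It was lost at 24 bins, among them bins at Neurog3, Gata5, Wnt1, Wnt4, Elfn2, Sost and Cacna2d2. At Hoxb7 the bin chr11:96286001-96287000 had H3K4me1 over 1000 bases in 236L and in 236R, against 0 in 159-1 and in 1014, and KDM6A over 1000 bases in each control line.

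The 189 bins over 10 kb from any control H3K27me3 peak held KDM6A in both control lines at 26, and the 122 bins next to a bin marked in a control line at 10. H3K4me2 was present in both mutant lines at 67 of those 189, and in both control lines at 63. Among the 72 bins in runs of 3 or more, KDM6A of both control lines lay at 8, and 4 of these were the Hoxb4 run.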
